A study of Mus musculus with 48 samples.

Results

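The counts described here fall on 95 gene models whose symbol ends in os, or in os and a digit, and whose symbol without that ending is itself listed in the count table. The os ending marks a transcript annotated on the opposite strand of the gene it is named after, called the base gene here. The table lists 26899 gene models, of which 127 end that way. For 32 of these the base symbol is absent, either because the letters are part of an ordinary name, as in Nos1 and Nanos1, or because the base gene is not listed. The 95 os models belong to 91 base genes, since 4 base genes carry more than 1 os model. All 95 pairs lie on opposite strands of 1 chromosome in the GENCODE M21 annotation.

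Transcripts on the opposite strand of a coding gene are common in mammalian genomes, and many start near the promoter of the coding gene or run through its exons. Where exons of both lie on the same bases, a read can be given to one or the other only by its strand. A directional library keeps that information, but counting it correctly needs the strand setting that matches the kit. With the opposite setting, reads of the coding transcript are placed on the antisense model, and the coding gene is left with few counts.

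The libraries were made from 4T1 cells, a mouse mammary tumor line, which carried an empty control vector (vector), FLAG-CNOT7 or 1 of 3 FLAG-tagged mutants of it. CNOT7 is a deadenylase subunit of the CCR4-NOT complex, which shortens poly(A) tails. In the study's description D40A has no deadenylase activity, E247A/Y260A does not bind TOB1 and M141R does not bind CNOT1, and in none of the groups was the cells' own Cnot7 removed. Each lysate gave an rRNA-depleted input library without antibody and an anti-FLAG RIP library, for 5 replicates of each construct, or 4 for D40A, numbered 6 to 10, which makes 24 inputs and 24 RIPs in 10 groups. Nothing in the labels says whether the numbers stand for separate cultures, so the p-values measure the spread between these samples, which may be technical.

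Total counts ran from 337861 to 826768 in the inputs and from 1305627 to 10719137 in the RIPs. The os models took 0.765% ± 0.241 (SD, n = 24) of the counts of an input and 0.0215% ± 0.00492 (SD, n = 24) of those of a RIP. In the RIPs, 67.1% of all counts lay on the 344 models that are absent from GENCODE M21, and in the inputs 3.0%. Scpep1os had a median of 425 counts per RIP and at most 2537. Of the 95 os models, 45 never exceeded 3 counts in a library, a level at which folds are left out, and 6 had no count in any input. The input of CNOT7 replicate 10 stood apart, with 509 counts on os models, and the RIP of D40A replicate 9 was the deepest library. Among the markers of 4T1's epithelial origin, the summed level of Krt8, Krt18, Krt19, Epcam and Cdh1 was 20.7 to 117 CPM (counts scaled to a common library total) in the inputs. The summed leukocyte markers reached 1.55 to 13.9 CPM, the fibroblast markers 0 to 10.9 CPM and the endothelial markers 0 to 29.6 CPM. These sums take in 5 epithelial genes and 2 of each other kind, and the epithelial and endothelial ranges overlapped. The epithelial sum rested mostly on Epcam and Cdh1, with median levels of 22.46 and 26.04 CPM. Krt8, Krt18 and Krt19 had medians of 2.21, 3.16 and 1.54 CPM, below the endothelial Pecam1 (7.94) and the leukocyte Cd68 (6.12). The medians of Ptprc, Cdh5 and Col1a2 were 0 CPM, and that of the fibroblast marker Pdgfra was 1.62 CPM.

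No os model had a called change against vector in any of the FLAG constructs, and the members are therefore described first by their place in the genome. By GENCODE M21, 49 pairs share exon bases, 28 overlap in the gene span only and 18 do not overlap at all. The annotation calls 80 of the os models antisense, 5 processed transcripts, 3 lincRNAs, 1 a bidirectional promoter lncRNA and 1 a transcribed unitary pseudogene (Abhd11os). The other 5 are annotated as protein coding (Slc7a6os, Fancd2os, Chd3os, Crxos and Ccpg1os), so the name os does not mark a noncoding gene there.

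Stretches of 4 pairs are printed to show what shared exon bases mean. They come from the GENCODE M21 transcripts on GRCm38, in the 5′ to 3′ direction of each transcript, and the 15 bases in capitals are the bases that both models share, each the reverse complement of the other. Scpep1os and Scpep1 share the bases chr11:88935856-88935870, Man2c1os and Man2c1 chr9:57131159-57131173, Tnk2os and Tnk2 chr16:32665942-32665956, and Acss2os and Acss2 chr2:155551190-155551204. The first 3 pairs are shown because their os model took most of the counts, and the last because its base gene did.
Scpep1os (+ strand): ctctccttccagcacCTGAGTGGCCTCCTT
Scpep1 (- strand): AAGGAGGCCACTCAGctgtgggggaaagca
Man2c1os (- strand): CTGTCCCCGAAGAGCctgggcaggagcagc
Man2c1 (+ strand): taaccttcgcggcagGCTCTTCGGGGACAG
Tnk2os (- strand): ccttctcacacacacCTTGCTCATCCATGA
Tnk2 (+ strand): TCATGGATGAGCAAGgtgttcagtggaaag
Acss2os (- strand): CTCTCTCAGCTTACCctgttaagagcccat
Acss2 (+ strand): tgtccagatgtccagGGTAAGCTGAGAGAG

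In the inputs, 12 pairs had more counts on the os model than on the base gene in every one of the 24 libraries. Of these, 11 share exon bases, and the other, Slc7a6os, does not overlap its base gene. In 8 pairs the base gene had more counts in every input, 4 of them with shared exons and 4 with a shared span. The remaining 75 pairs went either way or were tied in some libraries. Summed over the inputs, the os model was ahead in 37 pairs, behind in 56 and level in 2. Sharing exons was therefore common among the 12 pairs led by the os model in every input, with 11 beside 49 of all 95 pairs. Of the 37 pairs led in the summed inputs, 21 share exons, which is near the share over all pairs. Sharing exons did not by itself put the os model ahead: among the 49 such pairs the os model led in 21 and trailed in 27. Of the 28 pairs that overlap in span only, the os model led in 6, and of the 18 without overlap in 10.

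**Figure D1:**
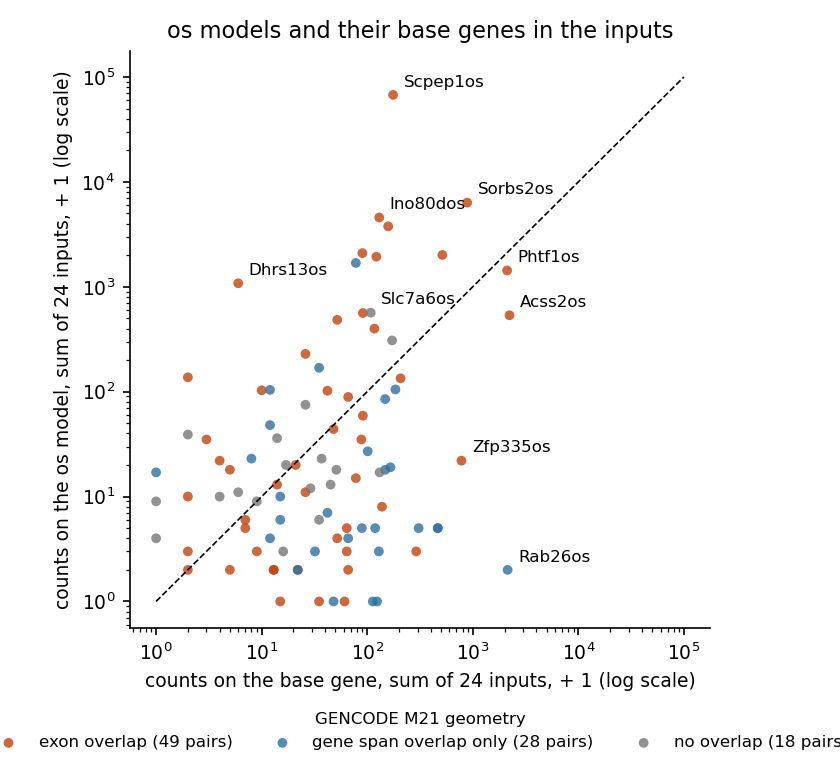
Counts of each os model (vertical) against its base gene (horizontal), each summed over the 24 inputs with 1 added, on log axes. Points are the 95 pairs, coloured by their geometry in GENCODE M21, and the dashed line marks equal counts. Scpep1os stands far above the line with 67497 counts against 175, while Rab26os lies far below it with 1 count against 2136.

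The 12 pairs held 93.8% of all input counts on os models and 94.0% of those in the RIPs. In the 11 that share exons, the shared part is 62 to 1051 bases, or 1.86% to 42.5% of the os model's exon length, and in 7 of them it includes coding sequence of the base gene. The table gives 1 count per gene model, so whether the counts lie on the shared bases was not tested. In RIPs the os model stayed ahead in 15 to 24 of the 24 libraries for these pairs, and 5 of them, all with shared exons, had it ahead in every input and every RIP: Scpep1os, Sorbs2os, Ino80dos, Man2c1os and Chn1os3.

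Scpep1os was the most counted os model. Its base gene Scpep1 encodes a retinoid-inducible serine carboxypeptidase. By input counts, Scpep1os was the model ranked 18 of the whole table, and it alone took 69.4% of the input counts of all os models. In vector inputs of replicates 6, 7, 8, 9 and 10 it had 4102, 2830, 4091, 2557 and 1173 counts, against 4, 14, 10, 5 and 4 on Scpep1. CNOT7 inputs held 3460, 3717, 3953, 1739 and 160 counts on Scpep1os and 1, 16, 6, 7 and 4 on Scpep1. The groups of the 3 mutants overlapped with both. D40A inputs 6, 8, 9 and 10 had 4014, 3940, 2242 and 1054 counts on Scpep1os, E247A/Y260A inputs 4139, 3288, 2868, 1894 and 1631, and M141R inputs 3527, 3775, 2786, 2612 and 1945. Scpep1 did not exceed 16 counts in any input. Per kilobase of annotated exon the summed inputs gave Scpep1os 83227 counts and Scpep1 83.5.

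The other pairs led by the os model had smaller counts and the same order in every input. Sorbs2os had 20 to 674 counts per input (median 246.5) and Sorbs2, which encodes an adaptor of the actin cytoskeleton, 3 to 110 (median 29.5). Ino80dos had 18 to 336 counts (median 170.0) and Ino80d, a subunit of the INO80 chromatin remodeller, 0 to 16 (median 4.5). Man2c1os had 15 to 328 counts (median 159.5), while Man2c1, the cytosolic alpha-mannosidase, had 2 to 15 (median 5.0). The ranges of Ino80dos and Ino80d did not overlap, those of Man2c1os and Man2c1 met at 15 counts and those of Sorbs2os and Sorbs2 overlapped, although within every library the os model was ahead. All 3 os models were at their lowest in the input of CNOT7 replicate 10. Chn1os3 had 9 to 159 counts (median 96.5) against 1 to 8 (median 3.5) on Chn1, a GTPase-activating protein for Rac. Has2os had 35 to 146 counts (median 71.0) against 9 to 69 (median 16.5) on Has2, a hyaluronan synthase. Srrm4os had 2 to 157 counts (median 60.0) and Srrm4, a regulator of neuronal splicing, 0 to 11 (median 5.0). The ranges of Has2 and Has2os overlapped.

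Dhrs13os and Tnk2os showed the same order at lower counts. Dhrs13os had 16 to 74 counts per input (median 46.0), and Dhrs13, a short-chain dehydrogenase, had at most 2 in any input. Tnk2os had 6 to 46 counts (median 22) and Tnk2, a non-receptor tyrosine kinase, 0 to 9 (median 4.0). Abhd11os and Rptoros, outside the rule by which genes are named and added because they complete the 12, had 483 against 51 and 398 against 116 counts over the 24 inputs. The pair without overlap, Slc7a6os and Slc7a6, had 8 to 44 counts (median 20.5) on the os model and 1 to 13 (median 3.5) on the amino acid transporter gene. In GENCODE M21, 2010 bases separate these models, and Slc7a6os is itself a coding gene.

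**Figure D2:**
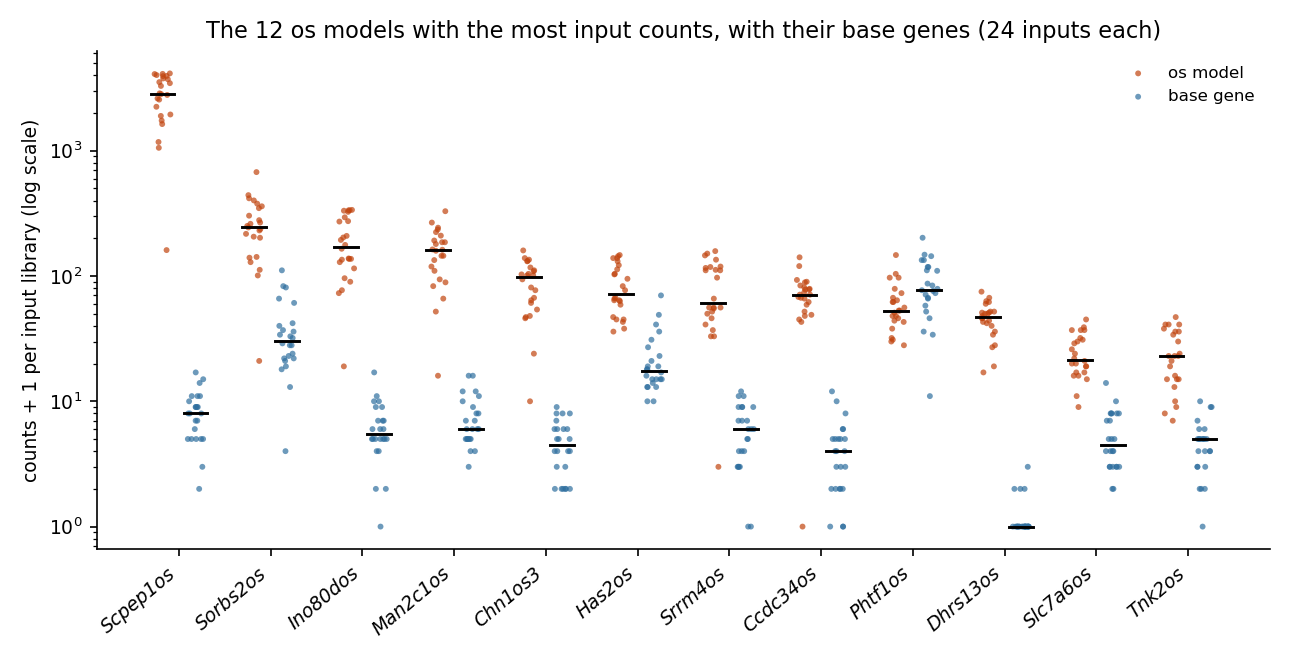
Counts per input library, with 1 added, on a log axis for the 12 os models with the most input counts (orange) and their base genes (blue). Each point is 1 of the 24 inputs and the bar is the median. In 11 of the 12 pairs the median of the os model lies above that of the base gene, and the exception is Phtf1os with medians of 52.0 and 77.0.

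Several os models also lie opposite a second coding gene. The exons of Ino80dos share 489 bases with Ndufs1, a subunit of respiratory complex I, those of Man2c1os 205 with the corepressor scaffold Sin3a, and those of Dhrs13os 528 with Phf12. In the summed inputs Ndufs1 had 219 counts against 4573 on Ino80dos, Sin3a 648 against 3765 on Man2c1os and Phf12 128 against 1079 on Dhrs13os. Thus for these 3 models both coding genes on the other strand had fewer counts, and the gene whose transcript would be concerned cannot be told apart. Phtf1os shares 448 exon bases with Phtf1 and 2101 with Rsbn1. Its 1429 input counts exceeded the 221 on Rsbn1 but not the 2112 on Phtf1, and in 22 of the 24 inputs Phtf1 was ahead.

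The pairs led by the base gene, named here after their values were seen, went the other way. Acss2 encodes an acetyl-CoA synthetase and had 6 to 183 counts per input (median 73.5), while Acss2os had 2 to 60 (median 19.5) and was behind in every input, although 335 bases of its exons, 53.3% of them, are shared. Counted per kilobase of annotated exon, however, Acss2os was ahead of Acss2 in every input. The exons of Acss2 in turn lie opposite those of Gss, the glutathione synthetase gene, which had 85 counts over the inputs against 2227 on Acss2. Zfp335, a zinc finger gene, had 780 counts over the inputs against 21 on Zfp335os and shares 1107 exon bases with Pcif1 on the other strand. Rab26, a small GTPase gene, had 2136 counts, and Rab26os, which lies in its span without a shared exon, had 1. In 4 of the 8 pairs led by the base gene in every input, the base gene has exons opposite another gene, as in 24 of the other 87 pairs.

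Level and strand were also compared in genes outside the pairs. Actb, Gapdh and Eef1a1 encode abundant housekeeping proteins. Their counts per input were 0 to 38 (median 11), 0 to 9 (median 2.0) and 7 to 127 (median 28.0). Krt8 and Krt18, keratins of simple epithelia, had medians of 1.0 and 2.0 counts. All 5 medians lie far below the 2849 counts of Scpep1os, the most counted os model, in the median input. The median os model, however, had 14 counts summed over the 24 inputs. That is fewer than the 298, 85, 894, 47 and 56 of these genes, in that order. Over the whole table, noncoding and other models whose exons overlap a coding gene on the opposite strand were 6.65% of the models and held 22.3% of the input counts, with a median of 100 counts per model over the 24 inputs. Coding genes with such an overlap were 10.1% of the models, held 20.0% of the input counts and had a median of 106. Coding genes without a coding gene on the other strand were 56.9% of the models and held 25.4%, with a median of 20. Coding genes that overlap one in the gene span only were 2.77% of the models and held 17.6%, with a median of 42, and noncoding models of that kind were 6.35%, held 4.24% and had a median of 5. The remaining noncoding models without an opposite coding gene were 16.0%, held 7.41% and had a median of 2.

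Reads of a coding transcript counted on the other strand could fall on an os model where both share exon bases. They could thus give the os model more counts than its base gene. True antisense transcription could give the same order, so the order alone cannot tell them apart. The pairs with shared exons and the os model ahead in all 24 inputs are the 11 of Scpep1os, Sorbs2os, Ino80dos, Man2c1os, Chn1os3, Has2os, Srrm4os, Dhrs13os, Tnk2os, Abhd11os and Rptoros. Of the 8 pairs led by the base gene in every input, 4 share no exon, so this does not apply to them. In 3 of the 4 that share exons, the os model had at most 3 counts in every library. In the remaining pair, that of Acss2os, the base gene was ahead in counts and the os model per kilobase of exon. The 75 others could not be placed, and 53 of the 95 os models had at most 3 counts in every input. The strand setting of the counting is not given in the sources used here, and true antisense transcription in these cells was not tested.

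The base genes that are developmental transcription factors, a class in which antisense partners are well known, added little. None of the 12 such pairs, among them Pax6os1, Otx2os1 and Nkx2-2os, had the os model ahead in every input. In the summed inputs the os model was ahead in 7 of them, with a median of 14 counts per os model and 4 per base gene. The 83 other pairs had medians of 14 and 51, and the os model was ahead in 30. The class of models named as in place of os was too small to compare: besides Hras, which pairs with Hr by its letters alone, it held Znrd1as with 8 input counts and Znrd1 with 6.

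The share of the os models in the counts of a pair does not depend on how libraries are scaled. Over the 95 pairs, os models held 86.3% ± 6.14 (SD, n = 24) of the counts in the inputs, from 70.5% to 92.7%. In the RIPs the share was 79.8% ± 8.25 (SD, n = 24), from 58.2% to 90.2%, so the ranges overlapped. Of the 24 lysates, 21 had a lower share in their RIP than in their input, with a median difference of -2.78 percentage points and a range of -29.3 to 3.89. Without Scpep1os and Scpep1 the means were 68.0% ± 4.99 and 58.8% ± 12.9 (SD, n = 24 each). Counted per kilobase of exon, they were 96.7% and 95.9%.

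By construct, the share in vector inputs was 87.2% ± 6.27 (SD, n = 5), in CNOT7 85.5% ± 8.86 (n = 5), in D40A 87.2% ± 7.21 (n = 4), in E247A/Y260A 86.0% ± 5.48 (n = 5) and in M141R 85.6% ± 5.19 (n = 5). In the RIPs the means were 82.6% ± 7.22 (SD, n = 5) for vector, 79.9% ± 7.69 (n = 5) for CNOT7, 81.2% ± 7.62 (n = 4) for D40A, 79.0% ± 9.05 (n = 5) for E247A/Y260A and 76.6% ± 11.4 (n = 5) for M141R. All 5 groups overlapped in both kinds of library, and the means differed by less than the SD of any group, which includes the spread between replicate numbers. Within a number, the M141R RIP had a lower share than the vector RIP in 5 of 5 pairs, with differences of M141R minus vector from -17.5 to -0.751 percentage points. The same held in 4 of 5 pairs for CNOT7 and for E247A/Y260A and in 2 of 4 for D40A. In the inputs the construct was below vector in 3 of 5, 3 of 4, 4 of 5 and 4 of 5 pairs for CNOT7, D40A, E247A/Y260A and M141R. These differences are a description, with no test. Pairs with the os model ahead in every input of a construct numbered 17 for vector, 14 for CNOT7, 21 for D40A, 17 for E247A/Y260A and 14 for M141R, and D40A has the fewest libraries to meet that condition. In the RIPs the numbers were 9, 9, 8, 9 and 7.

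**Figure D3:**
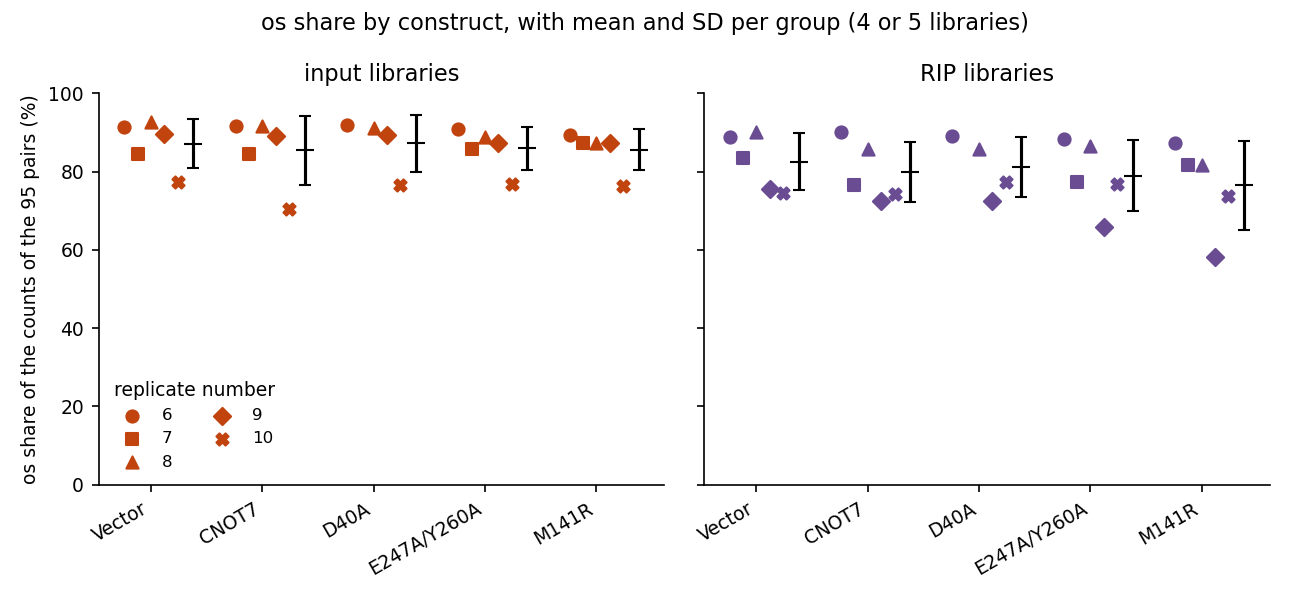
Share of the counts of the 95 pairs that lies on os models, in percent, for each input (left) and RIP (right) by construct. Symbols give the replicate number, and the bar beside each group its mean and SD over 4 or 5 libraries. Replicate 10 is the lowest input of all 5 constructs, and replicate 9 the lowest RIP of 4.

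The share differed more between replicate numbers than between constructs, which is given as a description with no test. The inputs numbered 10 had shares of 70.5% to 77.4%, while the 19 other inputs had 84.6% to 92.7%, and the ranges did not overlap. Scpep1os moved with it: inputs numbered 10 had 464 to 2671 CPM, and those of the other numbers 4398 to 8498 CPM. Chn1os3 was also lowest in the inputs numbered 10, with 26.1 to 86.5 CPM against 107 to 262 in the others. Sorbs2os did not follow. Its level was highest in the inputs numbered 10 of 4 constructs, at up to 1042 CPM in vector, and was 58.0 CPM in CNOT7 replicate 10. Of the 14 named os models, 3 were lowest in number 10 in all 5 constructs and 1 was highest in all 5. In the RIPs the numbers 9 gave the low shares, 58.2% to 75.7%, where those numbered 6 had 87.3% to 90.2%. The labels give the number only and do not call it a batch.

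**Figure D4:**
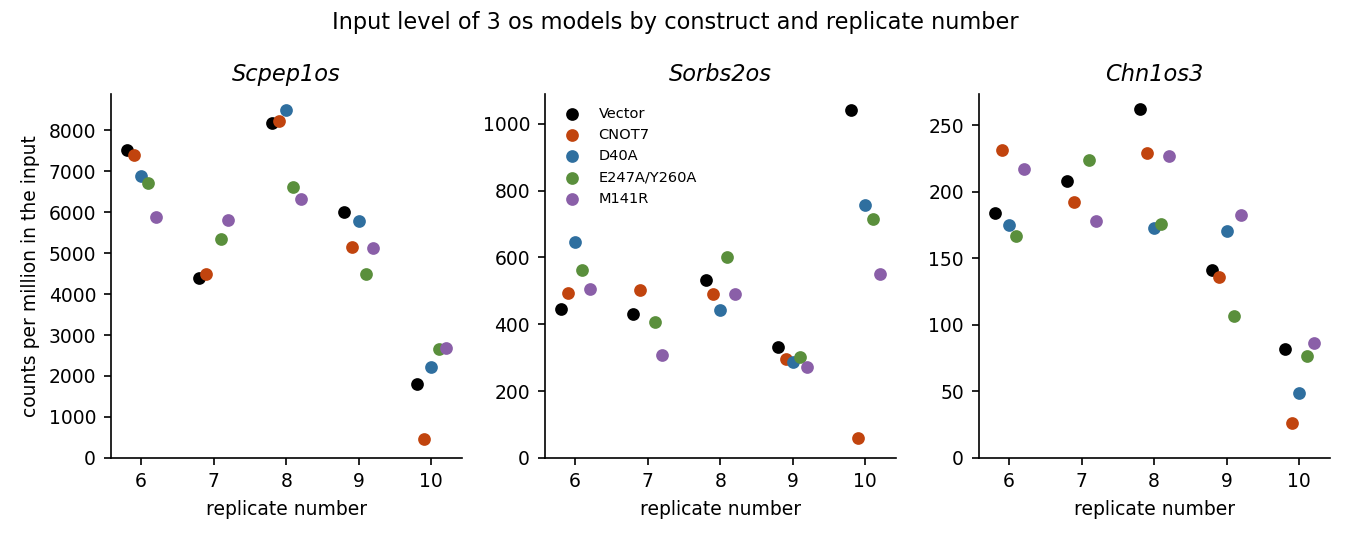
CPM of Scpep1os, Sorbs2os and Chn1os3 in the inputs by replicate number, each panel with its own axis from 0. Each point is 1 input, coloured by construct. Scpep1os and Chn1os3 are lowest in number 10 of every construct, while Sorbs2os is highest there except in CNOT7.

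The comparison of RIP with input asks which transcripts were recovered on the anti-FLAG beads, and was fitted over all 6931 models that passed the filter on low counts, 26 of them os models and 36 base genes. The filter was passed in the inputs alone by 22 of the 26 os models and in both kinds of library by 4, and 6354 of all 6931 models also passed in the inputs alone. Of the 36 base genes, 34 passed in the inputs alone, among them all 9 called lower and 12 of the 13 called higher. The counts of calls below therefore describe models selected by their input level. Averaged over the 5 constructs, 13 of the 26 os models were lower in the RIPs and 1 was higher (edgeR quasi-likelihood test, adjusted p under 0.05). Of all models tested, 46.8% were lower and 8.40% higher, so the share of os models called lower stood near that of the table. The median log2 fold change was -0.87 for the os models and -0.73 for all models. Of the 36 base genes, 9 were lower and 13 higher, with a median of 0.29. Directions between RIP and input rest on the scaling. With library size alone, without TMM factors, the median of all models was -4.87. All 26 os models and all 36 base genes were then lower, as were 6908 of all 6931 models. With DESeq2 the median was -0.03, and 7 os models were lower and 5 higher, against 1272 and 1402 of all models. The medians also rest on the filter: without one they were -0.19 for the 95 os models and -0.08 for all models, and with at least 10 counts in every library of a group -0.30 and -0.31. For the base genes these 2 settings gave medians of 0.63 and -0.25.

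Levels scaled by TMM are given below in CPM of the effective library size. Phtf1os fell the most among os models with more than 3 counts in some RIP. It had 12.9 to 42.2 CPM in the inputs (median 24.3) and 0 to 14.8 in the RIPs (median 4.96), with a slight overlap. Its log2 fold change was -2.17 ± 0.22 (SE) with an adjusted p of 2.83e-12 (edgeR quasi-likelihood test). Phtf1 fell as well, from a median of 33.9 to one of 15.9 CPM, by 1.10 ± 0.21 on the log2 scale (edgeR adjusted p = 1.83e-05). Slc7a6os, the coding model, went from a median of 9.44 to 3.10 CPM, with a log2 fold change of -1.60 ± 0.25 (edgeR adjusted p = 3.23e-07).

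Chn1os3 and Ccdc34os were called lower while their base genes, which had few counts, were called higher. Chn1os3 had 5.76 to 58.2 CPM in the inputs (median 38.5) and 4.47 to 31.0 in the RIPs (median 11.4), and its log2 fold change was -1.52 ± 0.21 (edgeR adjusted p = 2.44e-08). For Chn1 the value was 0.79 ± 0.35 (edgeR adjusted p = 0.0469), at medians of 1.49 and 1.75 CPM. Ccdc34os had a log2 fold change of -1.54 ± 0.23 (edgeR adjusted p = 1.04e-07) and Ccdc34, a coiled-coil protein gene, 1.20 ± 0.42 (edgeR adjusted p = 0.0132). In all, Ccdc34 had 77 counts over the inputs and 56 over the RIPs. Both base genes overlapped widely between input and RIP and were tested in 24 of the 48 fits that left out 1 library, and Chn1 had an adjusted p of 0.0551 with the replicate number as a block and of 0.161 without a filter. Slain1os, opposite the microtubule regulator gene Slain1, had a log2 fold change of -1.59 ± 0.34 (edgeR adjusted p = 9.14e-05). Its inputs held 2 to 22 counts (median 9.0) and its RIPs 0 to 4 (median 1.0). Within single constructs it was called in none without the block, and in D40A and E247A/Y260A with it. Arhgap27os3 had 104 counts over the inputs and at most 3 in any RIP, 7 in all. It passed the filter through 7 inputs alone, so neither fold nor p is given. Phtf1os, Slc7a6os, Chn1os3, Ccdc34os and Slain1os were called lower under TMM and DESeq2, with DESeq2 values of -1.58, -0.98, -0.81, -0.86 and -0.94. Library size alone called every os model tested lower, so it does not set them apart. None of them had a RIP at the level of the filter, so each entered the test through its inputs, where it was higher. Without a filter all of them were also called lower (edgeR adjusted p up to 0.00023).

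The most counted os models moved less. Scpep1os had 102 to 1830 CPM in the inputs (median 1276) and 300.1 to 1164 in the RIPs (median 638), and its log2 fold change was -0.88 ± 0.21 (edgeR adjusted p = 0.000436). That is close to the median of all models, and with DESeq2 it was -0.12 with an adjusted p of 0.631. The edgeR call was also lost on leaving out any 1 of 10 inputs, with log2 fold changes of -0.83 to -0.51 over all 48 such fits. Each of these fits also set the filter and the scaling anew, and the -0.88 of the full fit lies outside their range. The lost calls therefore do not rest on the library left out alone. Scpep1 itself had -0.01 ± 0.24 (edgeR adjusted p = 0.984). Sorbs2os, with medians of 100.4 and 52.6 CPM, had -0.86 ± 0.18 (edgeR adjusted p = 5.2e-05), and -0.21 with DESeq2 (adjusted p = 0.335). Has2os and Has2 fell together, by 1.15 ± 0.19 and 1.36 ± 0.26 on the log2 scale (edgeR adjusted p = 8.26e-07 and 1.24e-05). Under DESeq2 both were still called lower, with -0.52 for Has2os and -0.79 for Has2. Dhrs13os had -0.94 ± 0.20 (edgeR adjusted p = 7.19e-05), and -0.31 with DESeq2, where the call was lost (adjusted p = 0.17). Neither Has2os nor Dhrs13os had a RIP at the level of the filter. Both of them and Has2 entered the test through their inputs, where they were higher. Ino80dos, Man2c1os and Srrm4os did not pass the test. Their log2 fold changes of -0.12 ± 0.22, -0.29 ± 0.19 and -0.18 ± 0.24 became 0.57, 0.38 and 0.54 with DESeq2, where all 3 were called higher. With the replicate number as a block Man2c1os was called lower instead, at -0.30 (edgeR adjusted p = 0.0365).

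Tnk2os was the os model called higher in the RIPs. It had 3.42 to 16.1 CPM in the inputs (median 9.20) and 2.45 to 25.5 in the RIPs (median 11.99), and these ranges overlapped almost entirely. The log2 fold change was 0.52 ± 0.21 (edgeR adjusted p = 0.0348), 1.18 with DESeq2 (adjusted p = 6.93e-10) and -3.90 with library size alone. Without a filter it was 0.60, and the call was lost (edgeR adjusted p = 0.0793). Tnk2 had 0.35 ± 0.40 (edgeR adjusted p = 0.462).

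**Figure D5:**
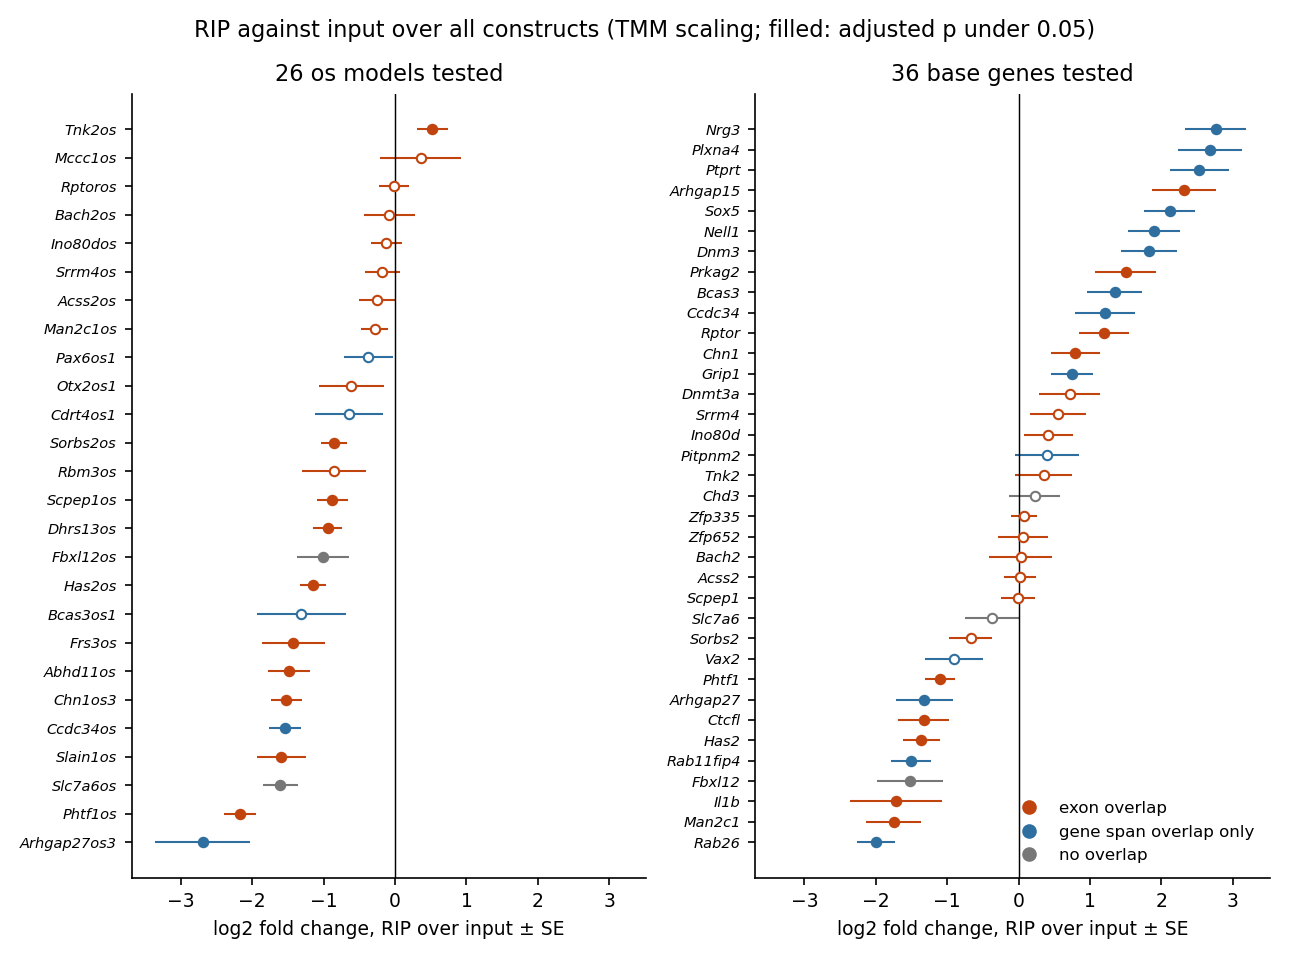
Log2 fold change of RIP over input, averaged over the 5 constructs, for the 26 os models (left) and 36 base genes (right) that were tested, with SE bars and TMM scaling. Filled points passed the test, and colours give the geometry of the pair in GENCODE M21. Most os models lie left of 0, and the base genes spread to both sides, from -2.00 for Rab26 to 2.76 for Nrg3. With library size alone every point lies left of 0.

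The base genes named next were chosen after their values were seen. Of 14 tested base genes whose pairs overlap in span only, 9 were higher and 3 lower, with a median log2 fold change of 1.27, and of 19 with shared exons 4 were higher and 5 lower, with a median of 0.06. Nrg3, a ligand of the ErbB receptor family, had 2.76 ± 0.43 (edgeR adjusted p = 2.69e-07), and Plxna4, a semaphorin receptor, 2.68 ± 0.45 (edgeR adjusted p = 1.36e-06). Their medians were 0.929 and 0.598 CPM in the inputs and 5.25 and 4.51 in the RIPs, with at least 1 RIP at 0. Arhgap15, a base gene with shared exons, had 2.31 ± 0.44 (edgeR adjusted p = 1.48e-05). Rab26 had -2.00 ± 0.27 (edgeR adjusted p = 7.2e-09). In the 17 pairs of which both models were tested, the os model had the lower log2 fold change in 13, and the median difference of os model minus base gene was -0.73. In 4 of these pairs both were called lower, and in 2, those of Chn1 and Ccdc34, the os model was lower and the base gene higher.

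Within single constructs the same fit called fewer os models, and none higher. In vector 5 of 26 were lower, in CNOT7 6, in D40A 2, in E247A/Y260A 2 and in M141R 3. Of all models, 12%, 10.6%, 5.54%, 9.87% and 12% were lower in these constructs, in that order, and 0.750%, 0.707%, 1.27%, 1.07% and 2.84% higher. Phtf1os and Chn1os3 were called in all 5 constructs, with and without the replicate number as a block. Under DESeq2, without a filter and with the stricter filter, Phtf1os was called in 3 constructs (CNOT7, D40A and M141R) and Chn1os3 in 0. In a fit of only the groups compared, Phtf1os was called in 2 (CNOT7 and M141R) and Chn1os3 again in 0. For Phtf1os the log2 fold change was -1.47 ± 0.46 (SE) in vector, -2.83 ± 0.50 in CNOT7, -2.21 ± 0.53 in D40A, -1.57 ± 0.46 in E247A/Y260A and -2.80 ± 0.52 in M141R (edgeR adjusted p = 0.0276, 6.44e-05, 0.00544, 0.0186 and 0.000135). Its RIPs held at most 14 counts each, and the difference between constructs was not called. Input and RIP of 1 number and construct come from 1 lysate. The block gives each number 1 effect shared by all constructs and both kinds of library, so it does not pair them by lysate. With it the calls added over the 5 constructs went from 18 to 37 lower and from 0 to 1 higher. Calls of all models, in both directions, went from 3925 to 7800. The os model added as higher was Tnk2os in D40A. In vector the block added Scpep1os and Sorbs2os, which had not passed without it.

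Against vector, no os model passed the threshold in any FLAG construct. In the inputs the 26 os models in 4 contrasts had log2 fold changes from -0.60 to 1.35, with 0 called by edgeR, where 0% of all models were called higher and 0% lower. None of these os tests, 0 of 104, reached an unadjusted p under 0.05 in edgeR, and DESeq2 called 0. Scpep1os had differences of -0.10 ± 0.46 (SE) for CNOT7, 0.17 ± 0.49 for D40A, -0.16 ± 0.46 for E247A/Y260A and -0.12 ± 0.46 for M141R. In the RIPs edgeR and DESeq2 called 0 as well, and 4 of the 104 tests had an unadjusted p under 0.05, all lower, for Arhgap27os3, Mccc1os and Phtf1os. The ratio of RIP to input compared with that of vector gave 0 calls by either tool and 3 tests with an unadjusted p under 0.05. For Scpep1os this ratio differed by 0.07 ± 0.65, 0.13 ± 0.69, 0.03 ± 0.65 and -0.12 ± 0.65 in CNOT7, D40A, E247A/Y260A and M141R. These errors leave room for differences of about 1 on the log2 scale, so that an effect of that size may not have been detectable at this depth. With the replicate number as a block these counts of calls remained at 0.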

How the data were processed

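RNA from input lysates and anti-FLAG immunoprecipitates of 4T1 cells was sequenced from directional, rRNA-depleted libraries. The authors deposited whole-number counts per gene model, without normalization, and the submitters' processing notes name BWA, HTSeq and the mouse build mm9. Versions, annotation and strand setting are not given in the sources used here. All 48 libraries have a column in the table, and 0 columns were left unused. Pairs were formed by symbol, and geometry was taken by gene identifier from GENCODE M21 on GRCm38, whose coordinates may differ from those used for counting. There 2 os models and 1 base gene have another symbol.

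From the deposited counts, a model with 10 groups was fitted with edgeR 4.0.16 in R 4.3.3 (filterByExpr, TMM, quasi-likelihood test, two-sided, Benjamini-Hochberg over all 6931 models, threshold 0.05). DESeq2 1.42.0, other filters and scalings, the replicate number as a block and each library left out were alternatives. The script was tested on simulated counts. Shares of os models were given without a test. Replicates of a group differed by more than sampling noise (chi-square per degree of freedom of at least 4.98). Deviations of same-numbered inputs from their group means correlated at 0.152 to 0.719 between each construct and vector, so the numbers pair the inputs. For RIPs the lowest correlation was 0.0377, and between RIP and input 0.00917. There the pairing comes from the shared lysate.

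Named os models were the 12 with the most input counts, the 6 with the most RIP counts, and up to 6 called in each direction between RIP and input or between constructs. Members and lists were chosen with earlier results of these data known. The floor of 3 counts reflects counting error alone, because the reads carry no molecular identifiers and need not be separate molecules. The microarrays and survival data of the study were not analysed here.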

Additional observations from a re-analysis of the deposited data

Results flagged for a closer look

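Of 70 sets of replicates examined (the os share in 10 groups, and the input level of the 12 most counted os models in 5 groups each), 7 held a library far from the others by Dixon's criterion, and chance alone would mark about 1 in 20. The os share of D40A input replicate 10 was 76.5%, where the other inputs of that construct had 89.4% to 91.9%, and that of M141R input replicate 10 was 76.5% against 87.4% to 89.4%. Sorbs2os stood at 1042 CPM in vector input replicate 10 against 332 to 532 in the others. Chn1os3 stood at 48.4 CPM in D40A input replicate 10 against 171 to 175. Ccdc34os had 0 CPM in CNOT7 input replicate 10 against 142 to 169 in the other CNOT7 inputs, although that library held 344689 counts. Thus 5 of the 7 were libraries numbered 10. The other 2 were Phtf1os in M141R input replicate 8, with 234 CPM against 61.8 to 102, and Tnk2os in M141R input replicate 9, with 15.7 CPM against 58.4 to 65.9. No os model had a called difference of its RIP to input ratio between a FLAG construct and vector.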

How the results depend on the processing

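The direction of a difference between RIP and input depends on the scaling, and the low counts of the RIPs limit what single constructs can show. Between RIP and input over all constructs, 1 os model was higher and 13 lower. With library size alone these numbers were 0 and 26, with DESeq2 5 and 7, with at least 10 counts in every library of a group 4 and 6, without a filter 4 higher (Hnf4aos, Arhgap33os, Nell1os and Pcsk2os2, named after their values were seen, and not Tnk2os), and with a log2 fold change of at least 1 0 higher. Over all models the calls were 582 higher and 3241 lower of 6931 in the main fit. They were 21 and 6908 with library size alone, 1402 and 1272 with DESeq2, and 413 and 925 of 2262 with the stricter filter. Without a filter they were 2089 and 3414 of 26899, and with a log2 fold change of at least 1 they were 452 and 2598. Of the base genes, 13 were higher and 9 lower. These numbers became 0 and 36 with library size alone, without a filter 21 were higher, with the stricter filter 3 higher and 4 lower, and with DESeq2 5 lower. For the calls added over single constructs, 0 higher and 18 lower, DESeq2 gave 4 and 4, no filter 2 and 4, the stricter filter 2 and 4, library size alone 130 lower, and a fit of only the groups compared 2 lower. With the replicate number as a block they were 1 and 37, and the block left the counts over all constructs within 1.5 times and those between constructs at 0. Calls of all models, added over single constructs in both directions, numbered 3925 in the main fit, 2476 with DESeq2 and 7800 with the block.

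Ino80dos, Man2c1os and Srrm4os, which had not passed the test, changed sign: Ino80dos to 0.0020 without a filter, 0.52 with the stricter filter, 0.57 with DESeq2 and 0.26 without all libraries numbered 10, an alternative added after the data were seen. Man2c1os went to 0.34, 0.38 and 0.071 and Srrm4os to 0.48, 0.54 and 0.16 with the stricter filter, DESeq2 and without number 10, in that order. With the block, Man2c1os was called lower at -0.30 (adjusted p = 0.0365). Tnk2os became -3.90 with library size alone. The os share moved to 68.0% in the inputs and 58.8% in the RIPs without the pair of Scpep1os, and to 96.7% and 95.9% per kilobase.

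With each library left out in turn, os models lower over all constructs numbered 11 to 14, and 1 was higher each time. Base genes higher numbered 7 to 15, at 7 without D40A RIP replicate 9 and at 8 without vector RIP replicate 7 or M141R RIP replicate 9, and those lower 8 to 11. Added over single constructs the lower os models numbered 13 to 18, between constructs 0 each time. The os share stayed at 86.0% to 86.9% in the inputs and 79.3% to 80.7% in the RIPs, and 12 to 13 pairs had the os model ahead in every input. Leaving out a RIP left 5658 to 6173 models to test and leaving out an input 8060 to 8916, since the filter follows the median library size. The log2 fold changes then ran from -0.83 to -0.51 for Scpep1os, which lost its call without 1 of 10 inputs (vector 8 or 9, CNOT7 8 or 9, E247A/Y260A 6, 7 or 8, M141R 7, 8 or 9), from -0.13 to 0.31 for Ino80dos, from -0.24 to 0.11 for Man2c1os and from -0.17 to 0.26 for Srrm4os.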
